A study of Mus musculus with 24 samples.

Results

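The complement system genes examined here are 34 genes picked by name, covering the recognition molecules, proteases, central component, terminal components, regulators and receptors of complement. All 34 were among the 13686 genes of the count table, and 32 had enough counts to be tested. They were measured in whole liver of male wild-type C57BL/6 mice, an inbred laboratory strain. For 6 weeks the mice ate either chow or one of 3 oil-enriched diets, which are called CSO (cottonseed oil), OO (olive oil) and SFO (safflower oil) below. There were 6 chow, 6 CSO, 6 OO and 5 SFO libraries of 3′ tags, in which a read marks the 3′ end of a transcript, so that a level needs no division by transcript length. Chow and the oil diets were compared as whole diets, and beyond calling the oil diets high-fat, the sources used here do not state what else differs between them. The labels give no age.

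Complement is a cascade of plasma proteins, most of which are made and secreted by hepatocytes. The classical pathway starts with C1q and the proteases C1r and C1s, which cleave C4 and C2. The lectin pathway reaches C4 and C2 through mannose-binding lectins, ficolins and MASP proteases, and the alternative pathway amplifies C3 cleavage through factors B and D and properdin. All routes meet at C3 and continue to C5 (the product of Hc in the mouse) and the membrane attack complex of C6 to C9. Soluble and membrane-bound regulators limit each step, and several complement genes of hepatocytes are known as acute phase genes.

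Library totals ran from 5428649 to 14930305 counts, and the 34 genes together held 2.04% to 2.93% of them. Skeletal muscle transcripts stood out in chow 3, chow 4, chow 5 and CSO 1, where Acta1, the muscle actin, was above 100 CPM (a gene's count scaled to a common library size after correction for library composition). OO 3 had the fewest detected genes (10615) and the lowest composition factor (0.811). Of 10 tested skeletal muscle markers, 8 were lower in OO than in chow, and their summed level was 10.6 to 3511 CPM in chow, 3.41 to 1556 in CSO, 0.534 to 21.6 in OO and 0.598 to 64.4 in SFO. The part of these transcripts in the results was not tested beyond leaving those 4 libraries out. The hepatocyte markers were abundant, with Alb at a median of 100269 CPM in chow. Nothing in the sources used here says how the samples of a diet were kept apart, so the p-values refer to the spread among these libraries only, and that spread may be technical.

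Promoters are shown for 5 members, from RefSeq (GRCm38.p6). The table used here had an entry for 26 of the 34 genes, with 28 promoters. It had none for C1qa, C2, C4b, Cfb, Cfi, Clu, Masp1 and Serping1. The called members C4b and Serping1 are therefore absent from the motif counts below. Each runs from 250 bases before the annotated start to 50 bases after it, 5′ to 3′ on the strand of the gene. Capitals mark a match to a C/EBP motif (TTGCNNAA) or an HNF1 motif (GTTAAT, any base, then ATTAA), read on both strands. C1s1 (chr6:124542310-124542609, minus strand, the upstream one of its 2 listed starts) and C4bp (chr1:130661569-130661868, minus strand) were higher in OO livers. C3 (chr17:57228087-57228386, minus strand), C9 (chr15:6445096-6445395, plus strand) and Hc (chr2:35061363-35061662, minus strand) belong to the central and terminal part of the cascade. The promoters of the other terminal members (C6, C8a, C8b and C8g) held neither motif, so those shown do not represent the terminal part.
C1s1: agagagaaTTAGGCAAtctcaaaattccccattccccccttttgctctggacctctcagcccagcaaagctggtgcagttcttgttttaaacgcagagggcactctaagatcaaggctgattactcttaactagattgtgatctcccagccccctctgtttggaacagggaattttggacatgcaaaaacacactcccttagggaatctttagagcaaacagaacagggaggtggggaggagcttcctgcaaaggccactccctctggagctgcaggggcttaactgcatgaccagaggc
C4bp: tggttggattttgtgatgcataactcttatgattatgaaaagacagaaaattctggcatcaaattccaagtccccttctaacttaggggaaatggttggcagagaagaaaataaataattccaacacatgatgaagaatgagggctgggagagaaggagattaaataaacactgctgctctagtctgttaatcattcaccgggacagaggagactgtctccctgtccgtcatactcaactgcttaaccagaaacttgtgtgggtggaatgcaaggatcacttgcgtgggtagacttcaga
C3: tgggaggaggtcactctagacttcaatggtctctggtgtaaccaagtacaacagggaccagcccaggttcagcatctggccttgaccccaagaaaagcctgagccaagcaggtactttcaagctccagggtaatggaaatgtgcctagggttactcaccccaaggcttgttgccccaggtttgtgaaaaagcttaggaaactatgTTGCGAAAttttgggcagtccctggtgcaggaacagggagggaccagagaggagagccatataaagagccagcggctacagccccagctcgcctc
C9: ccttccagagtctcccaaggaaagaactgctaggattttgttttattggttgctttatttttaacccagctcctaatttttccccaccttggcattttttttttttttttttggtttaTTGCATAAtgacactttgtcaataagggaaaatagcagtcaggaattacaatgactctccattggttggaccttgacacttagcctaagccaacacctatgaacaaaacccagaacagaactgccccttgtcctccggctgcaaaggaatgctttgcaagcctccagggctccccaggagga
Hc: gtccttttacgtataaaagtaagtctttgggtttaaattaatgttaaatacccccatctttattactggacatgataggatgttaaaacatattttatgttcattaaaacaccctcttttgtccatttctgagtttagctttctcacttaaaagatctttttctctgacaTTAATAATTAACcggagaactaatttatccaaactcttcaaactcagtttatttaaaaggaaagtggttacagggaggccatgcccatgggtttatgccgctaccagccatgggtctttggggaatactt

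The C/EBP letters were in 5 of the 28 member promoters (C1ra, C1rl, C1s1, C3 and C9) and in 10.8% of all 32851 promoters in the table. The HNF1 letters were in that of Hc alone among the members with an entry and in 0.0609% of all promoters. A STAT motif (TTCNNNGAA) was in 5 member promoters (C1ra, C8a, Cfhr2, Masp2 and Vtn) and 8.30% of all, an interferon response motif (ISRE, GAAA, any 2 bases, then GAAA) in 3 (Cd46, Cd59a and Vtn) and 3.44% of all, and an NF-kB motif (GGGA, any 2 bases, then TTCC) in 0 and 1.47% of all. The promoter of C4bp held none of these 5 motifs in this window, and neither did that of the other listed start of C1s1. A match describes the letters only.

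C3 was the most abundant member, at a mean of 8021 CPM over all libraries and 34.0% of the summed level of the members. Vtn (2810 CPM), C4b (1511 CPM), Clu (1412 CPM), Hc (1306 CPM), Cfb (1277 CPM) and Serping1 (1020 CPM) followed. Genes known from macrophages rather than hepatocytes were low, with C1qa at 22.3 CPM, C1qb at 18.6 CPM, C1qc at 14.1 CPM, Fcna at 20.6 CPM and Cfp at 9.28 CPM. C3ar1, Cd46 and C5ar1 were at 1.16, 1.03 and 0.425 CPM and had 0 counts in 6, 9 and 13 of the 23 libraries. Cd46 and C5ar1 were the members too low to test.

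Against chow, 4 complement genes rose in OO livers, 1 rose in SFO livers and none was called in CSO livers. In OO, 4 of the 32 tested members rose (C4b, Serping1, C4bp and C1s1) and 0 fell, where 1.72% of all 11971 tested genes were called higher and 0.919% lower (2.64% in either direction). In SFO, C4b rose and 0 fell, where 0.493% of all tested genes were called higher and 0.342% lower (0.835% in either direction). In CSO 0 of 32 were called, where 0.409% of all tested genes were called in either direction. These calls, and the fold changes given below on the log2 scale with their SE, are from edgeR's quasi-likelihood test at a Benjamini-Hochberg adjusted p under 0.05. At an unadjusted p under 0.05, 3 members were higher and 2 lower in CSO, 13 higher and 1 lower in OO, and 9 higher and 0 lower in SFO, beside 2.98% and 2.34%, then 9.68% and 6.44%, then 3.98% and 3.77% of all tested genes. In CSO against chow, DESeq2 and limma voom each called 1 member, C4b, as higher.

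The median log2 fold change of the 32 members against chow was -0.04 in CSO, 0.23 in OO and 0.18 in SFO, beside -0.02, 0.07 and 0.01 over all tested genes. The 3 comparisons share the same 6 chow libraries. Scaling by library totals alone, which moved the median of all genes in OO from 0.07 to -0.12, put the median of the members at 0.02 in OO. The 95% interval of the fold change lay within 2-fold in both directions (an absolute log2 fold change under 1) for 24 members in CSO, 25 in OO and 23 in SFO. The members with wider intervals were C1qa, C1qb, C1qc, C3ar1, Cd55, Cfd and Cfp in each diet, with Cd59a in CSO and SFO and Fcna in SFO.

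**Figure D1:**
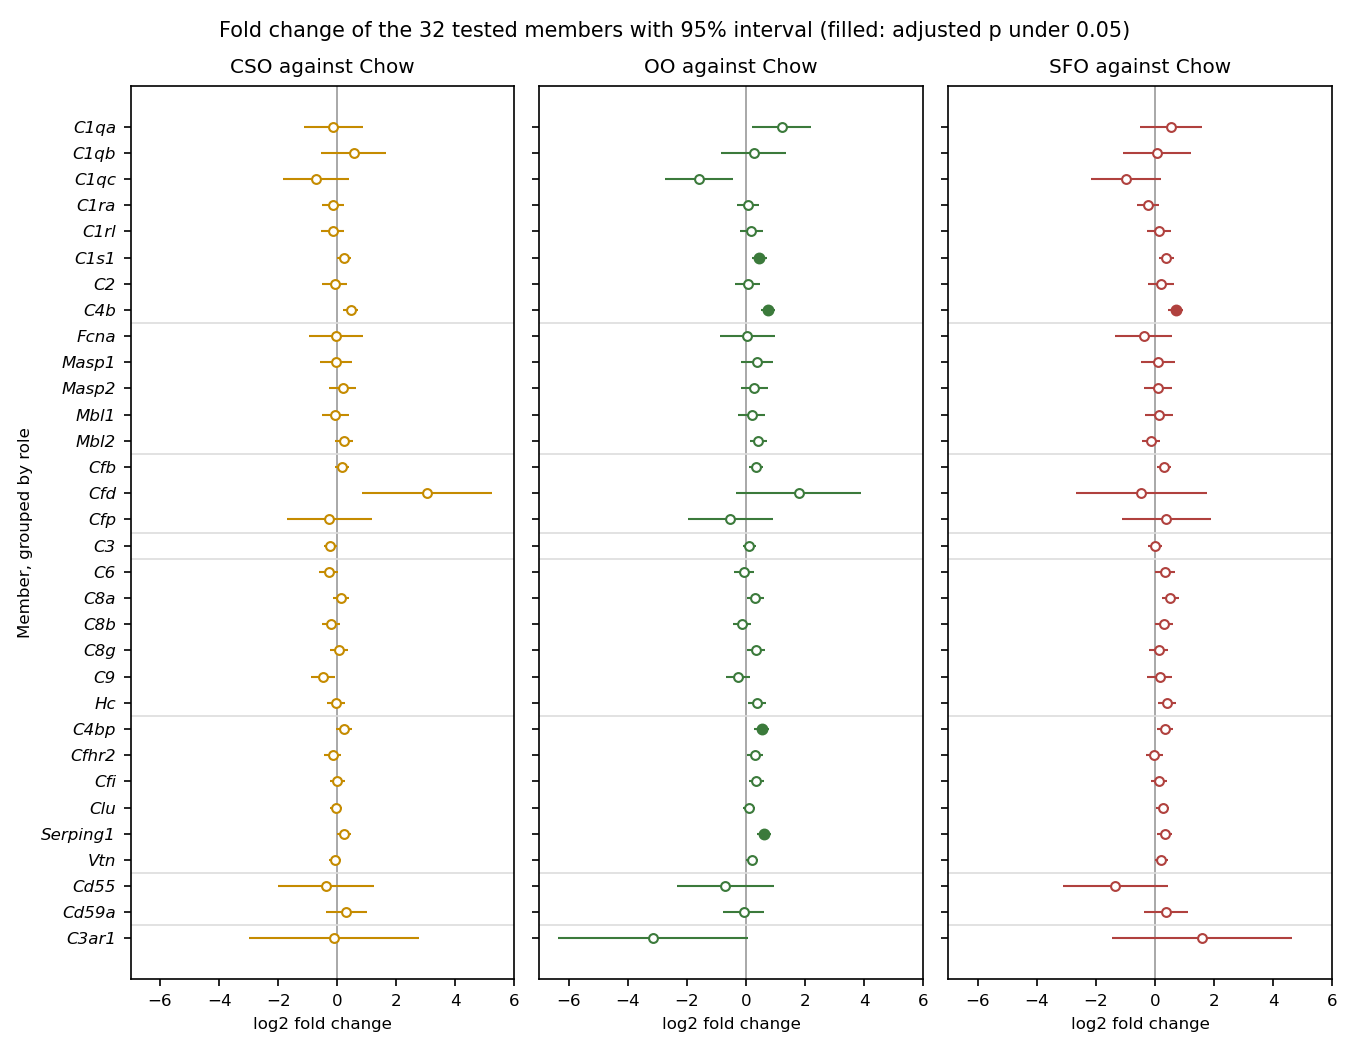
Log2 fold change against chow (x axis) of the 32 tested members (y axis, grouped by role) in CSO, OO and SFO livers, with lines for the 95% interval and filled points for an adjusted p under 0.05. The filled points are C4b in OO and SFO and C1s1, C4bp and Serping1 in OO, and C3ar1 and Cfd have wide intervals.

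Of the 8 classical pathway members, C4b and C1s1 rose in OO and C4b rose in SFO. C4b encodes C4, whose larger fragment forms part of the C3 convertase. It was at 927, 1100 and 1179 CPM in chow (lowest, median and highest of 6 libraries), at 1250, 1481 and 1634 in CSO and at 1387, 1587 and 2400 in OO. In SFO 1, 2, 3, 5 and 6 it was at 1665, 1639, 2188, 1834 and 1396 CPM. Every oil-diet library thus lay above every chow library, with OO 2, OO 6 and SFO 3 the highest. All CSO libraries lay above all chow libraries for 0.86% of the tested genes, and among the members for C4b and Serping1.

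The log2 fold change of C4b was 0.75 ± 0.12 (SE) in OO (adjusted p = 0.000185), 0.70 ± 0.13 in SFO (adjusted p = 0.000832) and 0.46 ± 0.12 in CSO (adjusted p = 0.0948), from edgeR's quasi-likelihood test. Means were 1071 ± 117 CPM (SD, n = 6) in chow and 1798 ± 420 (n = 6) in OO. Without the 4 libraries with muscle transcripts, which leaves 3 chow libraries, C4b was at 0.67 ± 0.16 in OO (adjusted p = 0.0544) and 0.64 ± 0.17 in SFO (adjusted p = 0.0975). C4a, a near-identical neighbour with which C4b could share reads, was at medians of 43.4 CPM in chow, 57.3 in CSO, 35.8 in OO and 65.3 in SFO, and was not called in any of these comparisons.

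C1s1 encodes C1s, the protease of the C1 complex that cleaves C4. It shares sequence with C1s2, listed at up to 8.71 CPM, so that their separate counts are uncertain. It was at 374, 414 and 424 CPM in chow, at 421, 484 and 527 in CSO and at 496, 557 and 623 in OO, and SFO 1, 2, 3, 5 and 6 were at 622, 570, 459, 450 and 553. Neither OO nor SFO overlapped with chow, while CSO did. All OO libraries lay above all chow libraries for 0.977% of the tested genes, and among the members for C1s1, C4b and Serping1. The fold change was 0.45 ± 0.12 in OO (adjusted p = 0.0310), and in SFO it was 0.38 ± 0.13 (adjusted p = 0.217). The call in OO was lost without chow 4, 5 or 6 or OO 4 (adjusted p = 0.0640, 0.0588, 0.0636 and 0.0603), with library totals (0.28 ± 0.12, adjusted p = 0.256), with only chow and OO in the fit (adjusted p = 0.0702) and with the 4 muscle-transcript libraries removed (0.46 ± 0.16, adjusted p = 0.282).

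The remaining classical members did not pass edgeR's quasi-likelihood test in any comparison with all libraries. C2 encodes the protease subunit of the classical convertase, C1ra the C1r protease and C1rl a relative of it. Their fold changes against chow lay between -0.23 (C1ra in SFO) and 0.20 (C2 in SFO). The 3 chains of C1q, the molecule that recognises antibody-coated surfaces, had fold changes of different sign in OO. The difference between the chains was not tested. In OO against chow C1qa was at 1.21 ± 0.50, C1qb at 0.26 ± 0.55 and C1qc at -1.59 ± 0.57 (adjusted p = 0.196, 0.871 and 0.110). C1qa ran from 9.08 to 106 CPM over the OO libraries and C1qc from 0.829 to 19.5 CPM. OO 3 was the highest OO library for all 3 chains. Without OO 3, C1qc was at -2.13 with an adjusted p of 0.0457, and DESeq2 on all libraries called it lower in OO (-1.59, adjusted p = 0.0480).

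C1q chains are made by Kupffer cells, the resident macrophages of the liver. Of 12 Kupffer cell and macrophage markers, all tested, 0 were called in each comparison with chow. Their summed level ran from 99.0 to 271 CPM in chow, from 86.0 to 202 in CSO, from 116 to 267 in OO and from 119 to 280 in SFO. Among them, Clec4f was at medians of 47.4, 37.0, 38.7 and 53.3 CPM in these 4 groups. In whole liver, fewer cells of a type and less RNA per cell cannot be told apart.

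**Figure D2:**
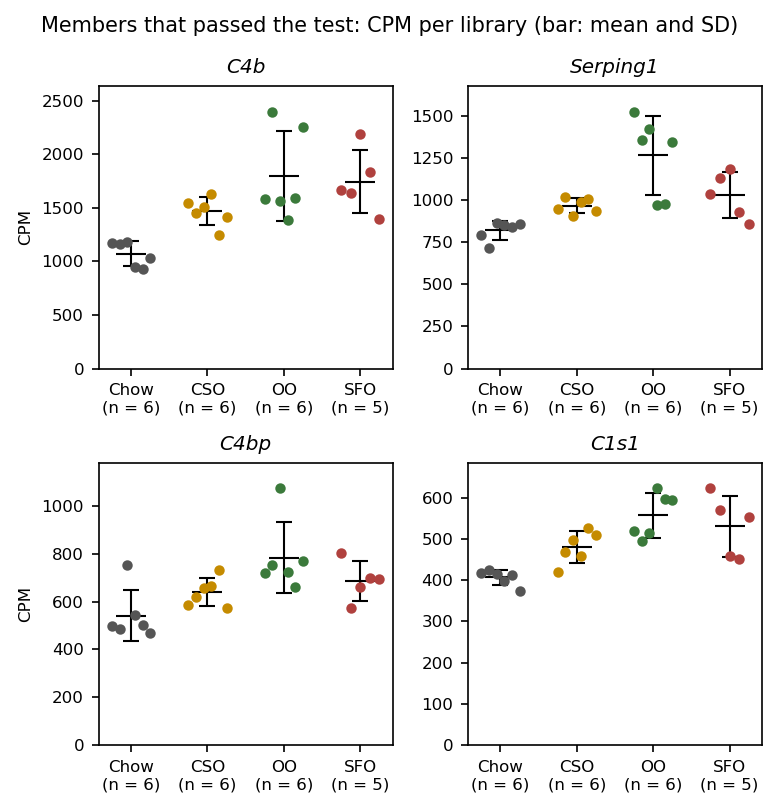
CPM (y axis, from 0) of C4b, Serping1, C4bp and C1s1 in each library, by diet, with the mean and SD as bars. All oil-diet points of C4b are above the highest chow point (1179 CPM), and chow 3 is the high chow point of C4bp (752 CPM).

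Among the 6 soluble regulators, Serping1 and C4bp rose in OO, and none was called in CSO or SFO. Serping1 encodes C1 inhibitor, which inactivates C1r, C1s and the MASP proteases. It was at 718, 846 and 864 CPM in chow, at 908, 968 and 1016 in CSO and at 969, 1348 and 1524 in OO. In SFO 1, 2, 3, 5 and 6 it was at 1038, 1132, 1183, 929 and 856. CSO and OO did not overlap with chow, and OO 4 and OO 5 (969 and 976 CPM) were at the level of the CSO libraries. The fold change was 0.62 ± 0.12 in OO (adjusted p = 0.00105), 0.24 ± 0.12 in CSO (adjusted p = 0.932) and 0.32 ± 0.12 in SFO (adjusted p = 0.359). Serping1 in OO kept an adjusted p between 3.74e-05 and 0.0473 in every alternative fit and with each library left out, although its fold change was below 2-fold.

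C4bp encodes the C4b-binding protein, a cofactor for the breakdown of C4b. It was at 469, 501 and 752 CPM in chow, at 575, 638 and 733 in CSO and at 660, 739 and 1075 in OO, and SFO 1, 2, 3, 5 and 6 were at 802, 574, 662, 700 and 693. Chow 3 was far above the other chow libraries and OO 3 far above the other OO libraries, so that chow and OO overlapped. The fold change in OO was 0.53 ± 0.13 (adjusted p = 0.0190). It was 0.42 ± 0.13 without OO 3 (adjusted p = 0.0656) and 0.34 ± 0.11 with library totals (adjusted p = 0.114). With only chow and OO in the fit it was 0.53 ± 0.14 (adjusted p = 0.0674). Without the 4 libraries with muscle transcripts, chow 3 among them, it was 0.69 ± 0.17 (adjusted p = 0.0544).

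The other soluble regulators were not called by edgeR's quasi-likelihood test with all libraries. Vtn (vitronectin) and Clu (clusterin), which bind forming membrane attack complexes, had fold changes of 0.22 ± 0.10 and 0.26 ± 0.11 in SFO (adjusted p = 0.575 and 0.456). Clu did not overlap between SFO (1457 to 1693 CPM) and CSO (1177 to 1351 CPM), and the difference of CSO from SFO was -0.30 ± 0.11 (adjusted p = 0.355). Of all tested genes, 0.526% had CSO libraries all below the SFO libraries. Cfi, the protease that degrades C3b and C4b, was at 0.35 in OO, and Cfhr2 at 0.30 (adjusted p = 0.120 and 0.270). Cfhr2 shares sequence with related genes, and its separate counts are uncertain.

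None of the 5 lectin pathway members was called in any comparison. Mbl2, a mannose-binding lectin and the most expressed of them, was at 248, 286 and 354 CPM in chow, at 306, 315 and 433 in CSO and at 333, 393 and 479 in OO. In SFO 1, 2, 3, 5 and 6 it was at 274, 252, 276, 219 and 323 CPM, all below the lowest OO library. The difference of SFO against OO was -0.56 ± 0.15 (adjusted p = 0.0511), and 0.576% of all tested genes had SFO libraries all below the OO libraries. Without OO 4, OO 5 or SFO 6 this difference had an adjusted p of 0.0493, 0.0295 and 0.0347. Mbl1, Masp1, Masp2 and Fcna had fold changes against chow between -0.38 (Fcna in SFO) and 0.37 (Masp1 in OO).

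In the alternative pathway, Cfb, the protease subunit of the alternative C3 convertase, was at 913, 1102 and 1337 CPM in chow, at 1121, 1233 and 1395 in CSO and at 1153, 1377 and 1682 in OO, and SFO 1, 2, 3, 5 and 6 were at 1553, 1178, 1552, 1479 and 1113. The groups overlapped, and the fold change was 0.34 ± 0.11 in OO (adjusted p = 0.0924) and 0.31 ± 0.12 in SFO (adjusted p = 0.381). Without OO 5 it was 0.39 in OO, with an adjusted p of 0.0470. Cfp, properdin, which stabilises that convertase, ran from 0.758 to 31.7 CPM over all libraries.

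Cfd, factor D or adipsin, varied widely between libraries, and its values, like those of C8a, C9 and C6 below, are given because they were seen to stand out. It was at 0.281, 4.21 and 29.1 CPM in chow, at 22.1, 70.5 and 160 in CSO and at 2.01, 25 and 75.6 in OO. SFO 1, 2, 3, 5 and 6 were at 0.392, 13.4, 3.01, 0.211 and 16.3. Every CSO library was above every SFO library, which was so for 1.17% of all tested genes, and only chow 3 (29.1 CPM) was above the lowest CSO library. The fold change in CSO was 3.05 against chow (95% interval 0.85 to 5.26, adjusted p = 0.495) and 3.51 against SFO (1.07 to 5.96, adjusted p = 0.334). Cfd is known as an adipocyte gene. On a list of 7 adipocyte markers that includes Cfd, 5 were in the table and Adipoq and Plin1 were not. The summed level of these 5 was 2048 to 3486 CPM in chow, 1979 to 2830 in CSO, 2359 to 3689 in OO and 1437 to 2549 in SFO. Nearly all of that sum was Car3, at medians of 2870, 2251, 3040 and 2113 CPM in these diets, so the sum says little about the other markers. Of the 4 tested markers, Cfd among them, 2 had positive fold changes in CSO against chow (median 0.45). In CSO against SFO 4 were positive (median 1.23), and in CSO against OO 3 (median 1.93). None of the 4 was called in these comparisons, and 1 (Fabp4) fell in OO against chow. These counts and medians include Cfd, so they partly restate its own level. Cidec was at 2.13 ± 0.88 in CSO against SFO and 2.59 ± 0.84 in CSO against OO (adjusted p = 0.497 and 0.112). The median of Car3, in contrast, was lower in CSO (2251 CPM) than in chow (2870) and OO (3040), and near that in SFO (2113). Of the single genes, Fabp4 was at 2.19 to 7.78 CPM in CSO and 1.37 to 41.6 in chow, Cidec at 18.4 to 54.2 and 1.41 to 43.3, and Lep had 0 counts in all CSO, OO and SFO libraries. Their part in the level of Cfd was not tested.

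**Figure D3:**
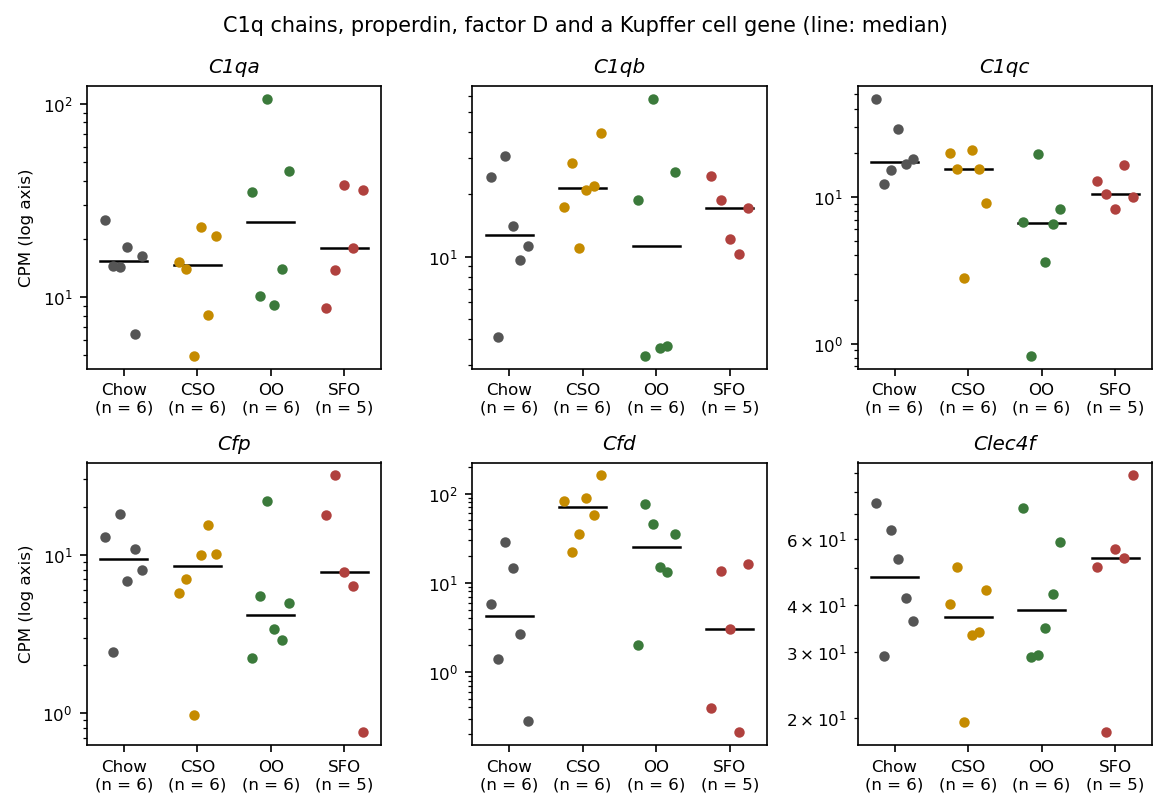
CPM on a log axis (y axis) of C1qa, C1qb, C1qc, Cfp, Cfd and the Kupffer cell gene Clec4f in each library, by diet, with the group median as a line. Cfd spans 0.211 to 160 CPM, with all 6 CSO libraries at or above 22.1, and each C1q chain overlaps between all diets.

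C3, the central component, was not called in any comparison. It was at 6331, 8488 and 9337 CPM in chow, at 6660, 6900 and 7343 in CSO and at 6591, 9162 and 10387 in OO. SFO 1, 2, 3, 5 and 6 were at 9206, 5436, 9801, 9075 and 7447. The CSO libraries lay close together, with a coefficient of variation of 3.55%, where it was 15.6% in chow, 14.8% in OO and 21.6% in SFO. This difference in spread was not tested. The fold change against chow was -0.23 (95% interval -0.46 to -0.01) in CSO, 0.12 (-0.11 to 0.34) in OO and 0.01 (-0.23 to 0.24) in SFO (adjusted p = 0.921, 0.670 and 0.9997). C3 in CSO against OO was at -0.35 ± 0.11 (adjusted p = 0.101). That difference passed the test without OO 5 (-0.42, adjusted p = 0.0313), the OO library with the lowest C3.

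The terminal components, Hc and the genes of C6, C8 and C9, were not called against chow in any diet. All 6 had positive fold changes in SFO (median 0.32, from 0.12 for C8g to 0.51 for C8a), as had 3 in OO and 2 in CSO. Hc, the most expressed, was at 1011, 1144 and 1325 CPM in chow, at 846, 1075 and 1577 in CSO and at 1158, 1424 and 1987 in OO. SFO 1, 2, 3, 5 and 6 were at 1808, 1169, 1915, 1641 and 1055 CPM. The fold change of Hc was 0.38 ± 0.15 in OO and 0.41 ± 0.16 in SFO (adjusted p = 0.162 and 0.379).

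C8a, a chain of C8, was at 412, 489 and 569 CPM in chow and at 620, 579, 864, 825 and 613 in SFO 1, 2, 3, 5 and 6, without overlap. Its fold change was 0.51 ± 0.14 in SFO (adjusted p = 0.0851), and without SFO 2 it was 0.58 with an adjusted p of 0.0460. Every SFO library was above every chow library for 0.677% of the tested genes, and among the members for C4b, C1s1 and C8a. C9, which forms the pore, was at 686, 987 and 1617 CPM in chow, at 553, 750 and 990 in CSO and at 653, 815 and 1184 in OO, and SFO 1, 2, 3, 5 and 6 were at 1252, 808, 1404, 1519 and 868. In CSO the fold change of C9 was -0.47 ± 0.20 (adjusted p = 0.811). Without the libraries with muscle transcripts it was -0.90 with an adjusted p of 0.0371. The 3 chow libraries left out (686 to 844 CPM) were the lowest of that diet. CSO 1, also left out, was the highest CSO library (990 CPM).

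**Figure D4:**
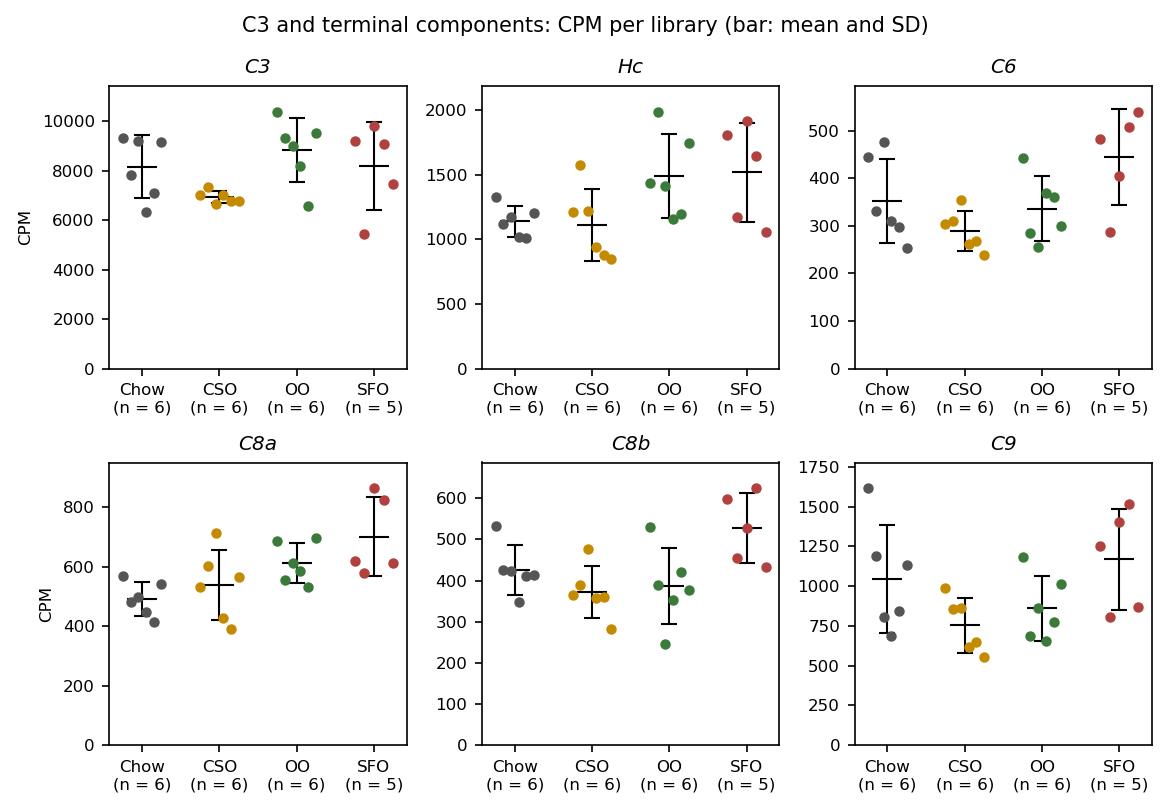
CPM (y axis, from 0) of C3, Hc, C6, C8a, C8b and C9 in each library, by diet, with the mean and SD as bars. The C3 points of CSO lie between 6660 and 7343 CPM, and in SFO the 5 points of Hc spread from 1055 to 1915 CPM.

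Within SFO, several of these genes were high in the same libraries. SFO 1, 3 and 5 held the 3 highest values of C3, Hc, C9 and Cfb, and SFO 2 and 6 the 2 lowest. Saa1, a serum amyloid of the acute phase, was at 355, 501 and 219 CPM in SFO 1, 3 and 5 and at 72.3 and 26.3 in SFO 2 and 6. Serping1 was highest in SFO 3 (1183 CPM) and SFO 2 (1132 CPM), so that not every member followed this order. These are the values of 5 libraries, and the relation was not tested.

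Membrane regulators and receptors were low throughout. Cd59a, which blocks the membrane attack complex, was at 27.0, 46.4 and 54.1 CPM in chow, at 36.2, 56.6 and 66.8 in CSO and at 15.9, 39.1 and 88.7 in OO, and SFO 1, 2, 3, 5 and 6 were at 42.1, 94.8, 39.3, 19.0 and 94.4. Cd55, which speeds the decay of convertases, ran from 0.122 to 27.0 CPM over all libraries. C3ar1, the receptor for the C3a fragment, was at or below 3.37 CPM in every library but SFO 3 (11.0 CPM). Neither Cd59a, Cd55 nor C3ar1 was called in any comparison, and the 95% intervals of Cd55 and C3ar1 reached beyond 2-fold in each.

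Between the oil diets 0 of the 32 members were called. The 4 comparisons were CSO against OO, CSO against SFO, SFO against OO, and CSO against the average of the other oil diets, for which, in this order, 1.09%, 0.493%, 1.06% and 0.727% of all tested genes were called by edgeR's quasi-likelihood test in either direction. At an unadjusted p under 0.05, 0 members were higher and 9 lower in CSO against OO, 2 higher and 8 lower in CSO against SFO, 4 higher and 3 lower in SFO against OO, and 1 higher and 13 lower in CSO against the other oil diets averaged. The shares of all tested genes higher and lower at that p were 5.7% and 9.04%, then 3.6% and 4.09%, then 6.44% and 8.9%, then 4.31% and 5.77%. Median fold changes of the members were -0.20, -0.15, -0.06 and -0.21, beside -0.08, -0.03, -0.04 and -0.04 over all tested genes. In the same order DESeq2 called 2, 3, 1 and 1 members and limma voom 1, 3, 0 and 1, all of them lower in the first-named diet. Over all genes DESeq2 called 423, 141, 464 and 207 and voom 114, 127, 9 and 171 in these comparisons, where edgeR called 130, 59, 127 and 87. The members called by DESeq2 were Cfhr2 and Serping1 in CSO against OO, and C6, C8b and Clu in CSO against SFO. They were Mbl2 in SFO against OO and Vtn in CSO against the other oil diets averaged. Voom called Vtn lower in CSO against OO (adjusted p = 0.0466). It called C6, C8b and Vtn in CSO against SFO (adjusted p = 0.0261, 0.0307 and 0.00647). In CSO against the other oil diets averaged it called Vtn (adjusted p = 0.00113).

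C6 in CSO against SFO was at -0.62 ± 0.17 (adjusted p = 0.0887 by edgeR's quasi-likelihood test), with 238, 286 and 355 CPM as the lowest, median and highest CSO values and 482, 288, 405, 507 and 540 CPM in SFO 1, 2, 3, 5 and 6. Only SFO 2 lay among the CSO libraries, and without it the difference was -0.75 with an adjusted p of 0.0201. C4b, the member called in OO and SFO against chow, was at -0.29 ± 0.12 in CSO against OO and -0.25 ± 0.13 in CSO against SFO (adjusted p = 0.229 and 0.674), so its difference between oil diets did not pass the test.

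Of 32 further complement genes on a second list, 27 were in the table and 24 were tested. Apcs, serum amyloid P, a pentraxin that binds C1q, rose in OO and SFO, and the other 23 were not called in any of the 7 comparisons. Apcs was at 29.3, 40.1 and 53.3 CPM in chow, at 38.2, 52.5 and 62.0 in CSO, at 56.3, 72.4 and 202 in OO and from 37.7 to 129 in SFO. Its fold change was 1.28 ± 0.29 in OO (adjusted p = 0.0112) and 1.18 ± 0.30 in SFO (adjusted p = 0.0417), where 1.72% and 0.493% of all tested genes were called higher.

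Acute phase genes outside complement moved in other numbers. Of 22 tested acute phase genes, 1 rose in CSO, 6 in OO and 13 in SFO, and none fell, with medians of 0.09, 0.47 and 1.18. Among all tested genes, 0.209% were called higher in CSO, 1.72% in OO and 0.493% in SFO. In SFO, Hp (haptoglobin) was at 1.35 ± 0.19, and Fgb (fibrinogen beta) at 0.94 ± 0.12, and both rose. Of 10 genes that carry or limit acute phase signals, 1 rose in SFO, which was Stat3 (1.02 ± 0.21), and 0 were called in CSO or OO. Of 20 interferon response genes 0 were called in CSO, 5 rose in OO and 0 were called in SFO, with medians of 0.54, 0.87 and 0.57. Irf1, a factor of the interferon response, rose in OO by 1.18 ± 0.33 (adjusted p = 0.0369). The summed level of the hepatocyte markers, of which 0 of 9 were called against chow, was 121319 to 161055 CPM in chow, 115259 to 164095 in CSO, 150276 to 201128 in OO and 131870 to 175302 in SFO. As a share of all counts it was 13.3% to 16.1% in chow and 14.5% to 16.3% in OO. The part of these genes in the complement levels was not tested.

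**Figure D5:**
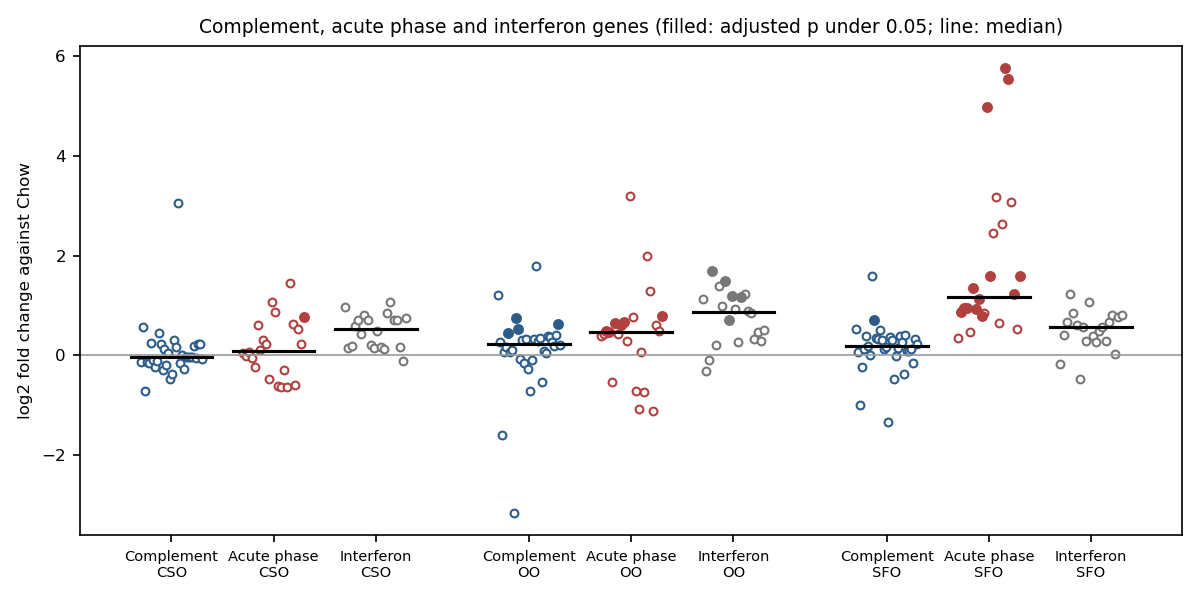
Log2 fold change against chow (y axis) of tested complement (n = 32), acute phase (n = 22) and interferon response (n = 20) genes in CSO, OO and SFO livers, with filled points for an adjusted p under 0.05 and a line for the median. The acute phase median is 1.18 in SFO, where the complement median is 0.18.

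The authors' deposited tables of chow against each oil diet hold, at an adjusted p under 0.05, 0 members for CSO, 5 for OO and 3 for SFO. They include all 4 members called here in OO and the 1 called in SFO, in the same direction. In addition the authors' deposited table lists C1qc as lower in OO (-1.59, adjusted p = 0.0488) and C1s1 (0.40, adjusted p = 0.0198) and C8a (0.53, adjusted p = 0.0347) as higher in SFO. In the authors' deposited table for CSO, C4b was at 0.45 with an adjusted p of 0.0513.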

How the data were processed

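Liver 3′ tag libraries (QuantSeq) were available for 23 of 24 labelled samples. SFO_4, which the submitters describe as an outlier with possible contamination, was not analysed here. Raw gene-level counts were deposited by the authors, with 3 tables of chow against an oil diet with a mean normalized signal, log2 fold changes and their log2 errors, a score (Wald statistic), and p-values before and after adjustment. Signs of the latter were turned (positive is the oil diet above chow). The submitters' processing notes name Trimmomatic, STAR 2.7.1a, the build mm39, HTSeq 0.9.1, DESeq2 and DESeq. Strand and multi-mapping settings are not given in the sources used here.

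Counts were fitted in R 4.3.3 with edgeR 4.0.16 (filterByExpr, TMM, all 4 diets together, diet as the only term, robust quasi-likelihood F test), which kept 11971 genes. The SE is the fold change divided by the root of F. DESeq2 1.42.0 and limma 3.58.1 (voom with sample quality weights) were alternatives, as were other scalings, filters, a replicate block and libraries left out. The procedure was tested on simulated data with changes of 2-fold or more in either direction. The called members changed by less than 2-fold, so that test does not show how well changes of their size are found. Members with a call, C3 and the most expressed member of each role with no call are given by library. Other members given by library were chosen after their values were seen. The members and lists were chosen with earlier results of these data known. Same-numbered libraries of different diets had correlations of deviations between -0.10 and 0.03 over 33 pairs, which gave no sign of pairing. Correlations over all tested genes cannot exclude a link that touches few genes. The labels do not say that numbers pair samples. Figures were drawn with matplotlib 3.10.9.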

Additional observations from a re-analysis of the deposited data

Results flagged for a closer look

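In each diet group, the highest or lowest library was compared with the rest by the size of its gap to the nearest library relative to the range of the group. Of 136 combinations of a member and a diet, 16 had a library that stood apart. About 1 in 20 would if the values were independent and normally distributed, which was not checked. Some members are near 0 CPM and 1 library can stand apart for several members, so the number is not compared with chance. OO 3 was the one in 4 of them, with C1qa at 106 CPM (next highest 44.7), C4bp at 1075 (next 770), Cfp at 21.9 (next 5.45) and Masp1 at 253 (next 127). OO 1 was the highest of its diet for Vtn (3801 CPM, next 3022) and Clu (1796 CPM, next 1434), OO 2 for Cd55 (27.0 CPM, next 8.38), OO 4 for Cd46 (12.8 CPM, next 1.56) and OO 5 for C5ar1 (0.335 CPM, next 0.101).

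In chow, C4bp in chow 3 was at 752 CPM (next 542), Mbl1 in chow 1 at 205 CPM (next 108) and C5ar1 in chow 6 at 3.09 CPM (next 0.937). In CSO, Clu in CSO 6 was the lowest at 1177 CPM (next 1294). In SFO, C2 in SFO 6 was the lowest at 52.9 CPM (next 130), and C3ar1 in SFO 3 (11.0 CPM, next 1.90) and C5ar1 in SFO 5 (4.22 CPM, next 0.190) were the highest.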

How the results depend on the processing

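The counts of members called against chow were 0 in CSO, 4 in OO and 1 in SFO. With a log2 fold change of 1 or more in size also required they were 0 in OO and 0 in SFO, and with library totals 2 in OO. DESeq2 gave 1 in CSO, 5 in OO (with C1qc lower) and 3 in SFO, and 2, 3, 1 and 1 in CSO against OO, CSO against SFO, SFO against OO and CSO against the other oils averaged. Voom gave 1 in CSO, 2 in SFO, 1 in CSO against OO, 3 in CSO against SFO and 1 in CSO against the other oils. With only the diets of the comparison in the fit, 1 member was called in CSO and 2 in OO, where C1s1 and C4bp were lost. Without the 4 libraries with muscle transcripts, which leaves fewer samples, the counts were 1 (C9, lower) in CSO, 1 (Serping1) in OO, 0 in SFO and 1 (C9) in CSO against SFO. With each library left out in turn they ran from 0 to 0 in CSO, 3 to 5 in OO, 1 to 2 in SFO, 0 to 3 in CSO against OO, 0 to 1 in CSO against SFO, 0 to 1 in SFO against OO and 0 to 1 in CSO against the other oils. The 3 calls in CSO against OO came without OO 5 (C3, Cfhr2 and Serping1). With the replicate number as a block 3 members were called in OO, as C1s1 had an adjusted p of 0.0582, and no other member count changed. 1 of 23 libraries correlated best with one of its own number. Over all tested genes, the counts called against chow were 49 in CSO, 316 in OO and 100 in SFO. They were 110, 716 and 207 by DESeq2, 206, 116 and 122 by voom, 198, 122 and 109 with only the diets compared, and 14, 26 and 34 without the 4 libraries with muscle transcripts, and with the block 208 in OO. Where not stated, the cause was not tested. No called fold change changed sign in any setting. The C1q chains, Cfp, Cd55, Cfd and C3ar1 had intervals beyond 2-fold in every comparison, and low counts limit C3ar1, which had 0 counts in 6 libraries.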
